A study of Mus musculus with 4 samples.

Results

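RNA in extracellular vesicles was compared with RNA in the cells that released them, for cells carrying the non-silencing control hairpin (shNS). The cells were RAW264.7, an established mouse macrophage line grown from a virus-induced tumour. The comparison rests on 1 vesicle library and 1 cell library of the 4 libraries in the series. Genes were taken in when they had at least 100 counts over both libraries, after transcripts had been summed per gene: 6542 of the 55375 genes of the table, or of the 36855 with any count in this pair. Of these, 5548 were protein-coding (13 of them on the mitochondrial genome) and 994 were noncoding. The 210 miRNA hairpins that reached the same minimum were kept in the totals and are not described gene by gene.

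All 4 libraries came from cells given doxycycline at 1 µg/mL, the drug that switches the hairpin on. After 3 days the medium was changed to one with vesicle-depleted serum and the drug, and 24 h later the medium and the cells were harvested. Vesicles were pelleted, separated by density in sucrose and treated with micrococcal nuclease, which digests RNA that is not enclosed. Per the labels, the cells for a preparation were grown in several flasks. The other pair of libraries came from cells and vesicles with a hairpin against Dis3l2 (shDis3l2), an exonuclease that degrades RNAs with uridine tails. With 1 library a group there was no replicate, and the shNS pair by itself allowed no test. Fits over all 4 libraries, which take in the shDis3l2 pair, are given with the alternatives at the end. Exact 95% intervals are given, and they cover counting error only.

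Extracellular vesicles are membrane-bound particles that bud from the cell surface or are released when internal compartments fuse with it. They enclose cytosol, and with it RNAs of the cytoplasm such as tRNAs, Y RNAs and fragments of ribosomal and messenger RNA. Small nucleolar RNAs (snoRNAs) guide the modification of rRNA inside the nucleolus, and mitochondrial transcripts are made and translated inside the organelle, so both kinds normally sit behind another membrane. The libraries were made with a kit for small RNAs and read for 50 nt, so counts on an mRNA or a long noncoding RNA are counts of short pieces of it. Each ratio compares a gene's share of the vesicle library with its share of the cell library: it cannot tell more RNA of a gene from less RNA of all the others, nor a change in the number of vesicles from a change in their content.

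The cell library held 19740605 counts and the vesicle library 18189658. Without miRNA hairpins these totals were 6260162 and 14712192, and 1709 and 5104 genes had at least 100 counts. A count of 0 allows up to 0.152 CPM (the count over the library's total, scaled so that each library sums to the same) in the cell library and 0.165 in the vesicle library, at a floor of 3 counts. Markers of the macrophage lineage were present, and 0 members of the 5 lists for red cells, lymphocytes, epithelium, fibroblasts with endothelium, and serum with liver reached 100 counts. Those lists summed to between 1.11 and 5.62 CPM in cells and between 2.14 and 8.36 CPM in vesicles. Dis3l2 counts were higher in the cells with the hairpin against it: cells labelled shNS gave 41 counts and cells labelled shDis3l2 gave 13232. The vesicles gave 1713 and 1894. In the shNS vesicles 95.3% of the Dis3l2 counts lay on 1 transcript. These are counts of short pieces. Their source and the level of the Dis3l2 mRNA were not tested, so the counts do not show whether the hairpin lowered that mRNA.

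The first question was which kinds of RNA made up each library. tRNAs took 4.04% of counts in cells and 38.5% in vesicles, and became the largest class there. Fragments of protein-coding genes took 6.92% in cells and 19.8% in vesicles, and long noncoding RNAs 6.69% and 14.1%. The miscellaneous small RNAs of the annotation (misc_RNA), which include Y, vault and 7SL RNAs, took 0.700% and 4.69%. The share of snoRNAs was 8.66% in cells and 0.427% in vesicles. Mitochondrial rRNAs and tRNAs took 2.32% (95% interval 2.32 to 2.33) and 0.0371% (0.0362 to 0.0380), and the 13 mitochondrial mRNAs 0.105% and 0.00362%. Ribosomal RNA took 1.56% and 1.67%, or 4.93% and 2.06% without hairpins in the total. The miRNA hairpins took 68.3% of the cell library and 19.1% of the vesicle library, so the other shares depended on them. Without hairpins in the total, snoRNAs still went from 27.3% to 0.529% and tRNAs from 12.7% to 47.6%, while protein-coding genes stood at 21.8% and 24.5% and long noncoding RNAs turned to 21.1% and 17.5%.

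**Figure D1:**
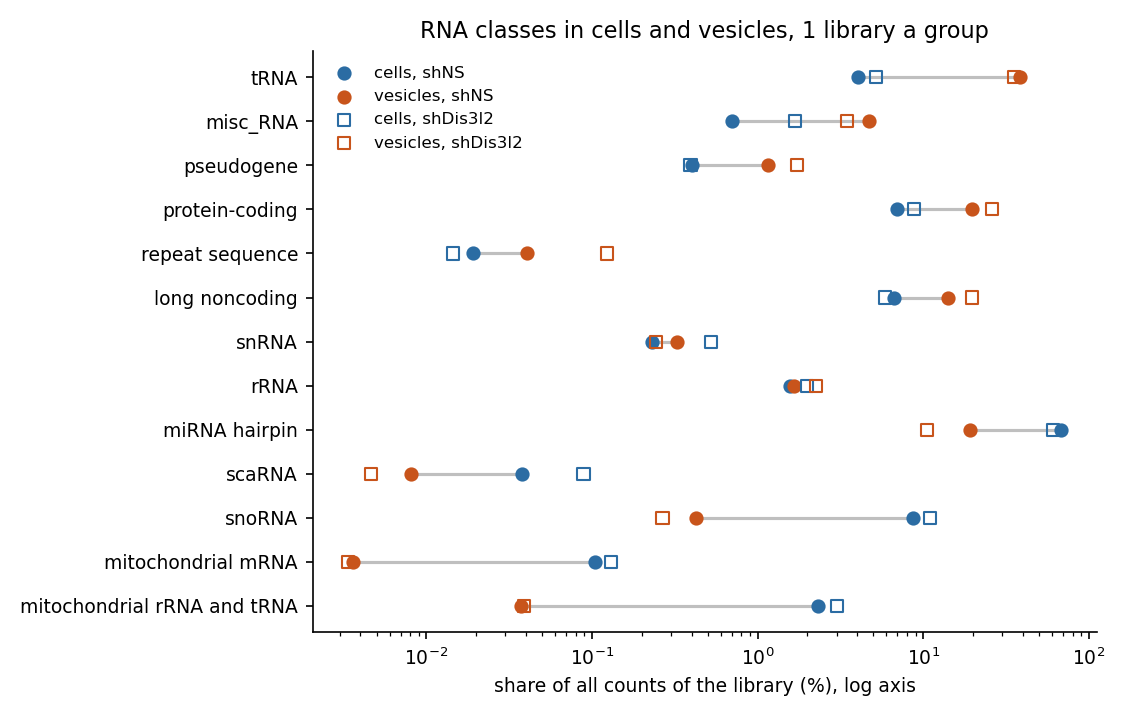
Share of all counts of a library taken by each RNA class (horizontal axis, percent, log scale), with the shNS libraries as filled circles joined by a line and the shDis3l2 libraries as open squares, cells in blue and vesicles in orange. tRNAs go from 4.04% to 38.5% between the shNS libraries and snoRNAs from 8.66% to 0.427%.

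Counted gene by gene, 5001 of the 6542 genes (76.4%) were at least 2-fold higher in vesicles with an interval that excluded no difference, and 792 (12.1%) were at least 2-fold lower. Protein-coding genes gave 4522 higher (81.5%) and 376 lower (6.78%) of 5548. Noncoding genes were nearly evenly divided, with 479 higher (48.2%) and 416 lower (41.9%) of 994. The scale moves all ratios together: by -0.98 on the log2 scale with edgeR TMM factors, -0.86 with DESeq2 size factors, -1.35 with the total without miRNA hairpins, -1.49 with the protein-coding total, and -1.92 with the protein-coding total without genes that hold a small RNA gene in an exon. The split of all genes was then, in that order, 3728 higher and 1066 lower, 3963 and 1018, 3016 and 1185, 2701 and 1244, and 1980 and 1484. Noncoding genes gave 421 higher and 456 lower, 429 and 452, 385 and 478, 377 and 485, and 345 and 507. On each of these scales more noncoding genes were lower than higher. Each of these 5 scales lowers every ratio, so a gene lower on the library total is lower under all of them by construction. Log2 ratios are given beside 2.27, the median of the 5535 measured protein-coding genes of the nucleus. That median depends on the count minimum, since 246 of these genes had at most 10 counts in cells, 1689 had 11 to 30 and 2670 had 31 to 100. In what follows, exported and retained mean a higher and a lower share of the vesicle library than of the cell library.

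The classes differed in direction. tRNA families had a median log2 ratio of 3.01 over 47 measured families (42 higher, 1 lower), and misc_RNA genes 2.65 over 16 (14 higher, 2 lower). The 10 rRNA genes measured had a median of 3.92 and the 32 snRNA genes 1.30, or -0.05 with the total without miRNA hairpins. Long noncoding RNAs stood at 1.54 over 484 genes (265 higher, 157 lower), or -0.38 under the last of the 6 scales, and pseudogenes at 5.25 over 171, or 5.18 with genes at 0 set to their bound. snoRNAs stood at -3.88, with 185 of 195 lower and 3 higher, and scaRNAs, their relatives that modify snRNAs in Cajal bodies, at -2.00 (9 of 11 lower). Mitochondrial transcripts were lower without exception: 13 of 13 mRNAs (median -4.98) and 24 of 24 rRNAs and tRNAs (median -5.10). Under the last scale, which lowers ratios most, 25 tRNA families and 8 misc_RNA genes were still at least 2-fold higher.

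**Figure D2:**
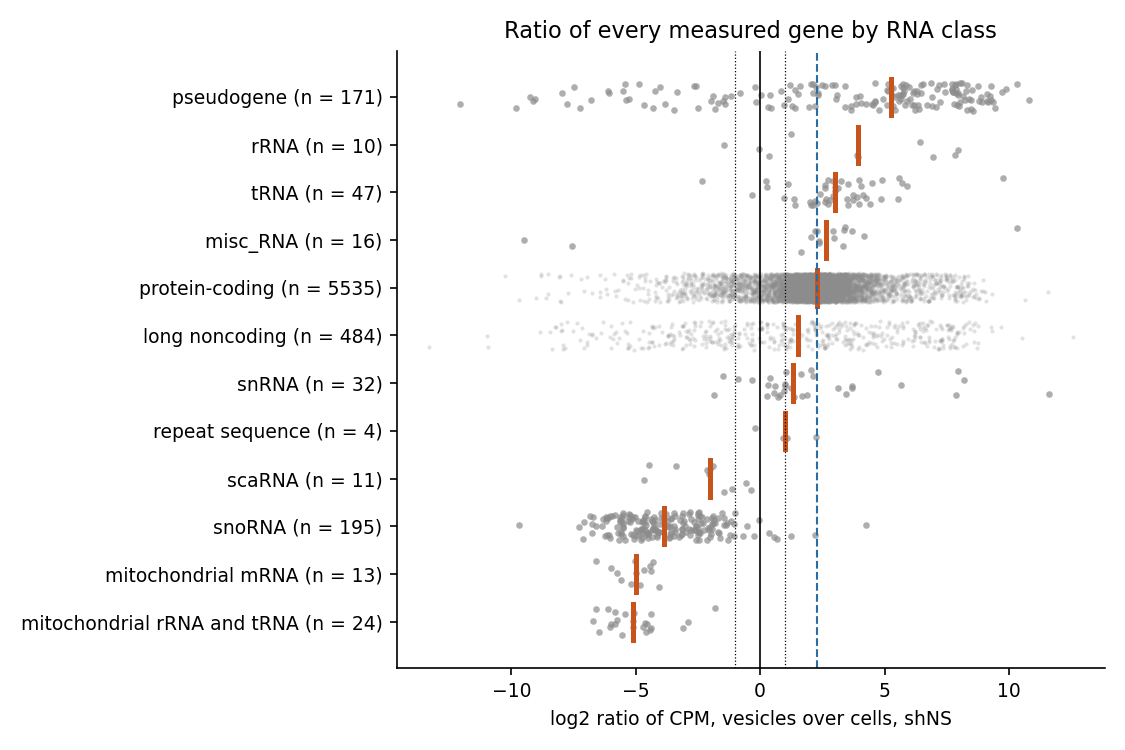
Log2 ratio of vesicles over cells (shNS libraries, horizontal axis) for every measured gene, by RNA class, with the median of a class as an orange bar and the protein-coding median of 2.27 as a blue dashed line. snoRNAs and mitochondrial transcripts lie almost entirely left of 0, and tRNAs almost entirely right of it.

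The cytoplasmic RNAs made by RNA polymerase III were among the most abundant exported RNAs. Y RNAs are short stem-loop RNAs that bind the Ro60 protein, and the mouse genes Rny1 and Rny3 sit near each other on chromosome 6. Their sequences are shown because both are exported while differing in their loop, with the longest stretch they share, 12 bases, in capitals (GENCODE M21, GRCm38, 5′ to 3′; Rny1 at chr6:47788069-47788180, minus strand, and Rny3 at chr6:47781624-47781725, plus strand).
Rny1: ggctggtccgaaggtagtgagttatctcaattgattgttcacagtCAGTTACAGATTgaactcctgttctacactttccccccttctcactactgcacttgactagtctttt
Rny3: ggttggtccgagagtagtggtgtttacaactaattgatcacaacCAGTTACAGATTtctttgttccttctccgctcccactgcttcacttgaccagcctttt
The shared stretch occurs in 5 of 428 misc_RNA sequences of up to 300 nt (1.17%). A match of letters is a description and shows no binding.

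Rny1 had 31330 counts in the shNS cells and 148269 in their vesicles, 5.14-fold higher (95% interval 5.07 to 5.20). Rny3 had 15907 and 191735, 13.1-fold higher (12.9 to 13.3). In the shDis3l2 pair Rny1 had 25746 and 116503 counts and Rny3 65444 and 204073, so the ratio of Rny3 was 3.26 there. Vaultrc5, the RNA of the vault particle (chromosome 18), had 4568 counts in cells and 76037 in vesicles, 18.1-fold higher. Rn7s1 encodes 7SL, the RNA scaffold of the particle that docks ribosomes at the endoplasmic reticulum. It had 5828 and 55574 counts, 10.3-fold higher. These 4 made up the higher members of the list of cytoplasmic structured RNAs (80.0%, beside 48.2% of noncoding genes). The list's median over 5 measured members was 3.37 (2.24 in the shDis3l2 pair). The other, Bc1, a brain cytoplasmic RNA, had 67 and 43 counts and was within 2-fold. Gm24379, an 86 nt misc_RNA on chromosome 2, had 78782 and 374351 counts, 5.16-fold higher, but 205277 and 137541 in the shDis3l2 pair, where its log2 ratio was -0.51. Gm26023, another misc_RNA, went from 0 counts to 583, at least 211-fold higher.

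The nuclear structured RNAs behaved less uniformly. Of 22 listed, 13 are in the table and 11 were measured: 3 were higher, 4 lower and 4 within 2-fold, for a median of 0.55, which is -0.44 with TMM factors. The shares higher and lower were 27.3% and 36.4%, beside 48.2% and 41.9% of noncoding genes. The highest was Rpph1, the RNA of the tRNA-trimming enzyme RNase P, with 266 and 2625 counts (10.7-fold, 9.44 to 12.2). The lowest was Snord118, the U8 RNA needed for large-subunit rRNA, with 10409 and 1711 counts (5.60-fold lower). Rnu7, the U7 snRNA of histone mRNA processing, had 8064 and 10869 counts, a log2 ratio of 0.55. Among snRNAs, Rnu12 of the minor spliceosome was lowest, with 1670 and 429 counts (3.58-fold lower, 3.22 to 4.00), and it was 53.7-fold lower in the shDis3l2 pair, where its cell count was 13773. Rnu1a1, a gene of the U1 RNA that recognises splice donor sites, had 7826 and 9038 counts and was within 2-fold. U1 and U6 RNAs have many near-identical gene copies, among which counts can be divided, so single copies with few counts in cells are uncertain. Gm24261, an snRNA gene with 0 counts in both cell libraries and 1442 and 2191 in the vesicle libraries, is 1 example, at least 522-fold higher in the shNS pair.

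Transfer RNAs were counted by anticodon, in 51 families. tRNA-Lys-CTT, which brings lysine to the ribosome, had 33942 counts in cells and 1625990 in vesicles, where it made up 8.94% of the library, 52.0-fold higher (51.4 to 52.6). tRNA-Arg-TCT went from 9630 to 535377 counts (60.3-fold), tRNA-Leu-TAG from 1822 to 81730 (48.7-fold) and tRNA-Gly-TCC from 3669 to 158094 (46.8-fold). tRNA-Ser-AGA had 0 counts in cells and 400 in vesicles, at least 145-fold higher. The most abundant families in cells differed less. tRNA-Gly-GCC had 133512 and 497860 counts (4.05-fold), tRNA-Glu-TTC 114018 and 205030 (1.95-fold, short of 2-fold) and tRNA-Val-CAC 97907 and 724667 (8.03-fold). tRNA-Lys-TTT, the other lysine family, went from 77089 to 813699 (11.5-fold). A read that matches several tRNA genes is shared among them by the counting program, so the division between families with like sequences is less certain than their sum.

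Summed by amino acid, cytoplasmic tRNAs were above 0 on the log2 scale for 19 of 20 amino acids, from 4.93 for arginine down to -0.15 for proline, whose tRNAs had 39167 and 32440 counts. Mitochondrial tRNAs, which serve translation inside the organelle, were below 0 for 20 of 20, from -1.82 for valine to -6.71 for methionine. For methionine the cytoplasmic tRNAs had 14109 and 42684 counts and the mitochondrial tRNA 110648 and 973. For every amino acid, then, the nuclear-encoded tRNA had the higher ratio and the organelle's own the lower, in both pairs of libraries. Under the last of the 6 scales, which lowers all values by 1.92, cytoplasmic tyrosine (1.14) and methionine (1.72) would also lie below 0.

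**Figure D3:**
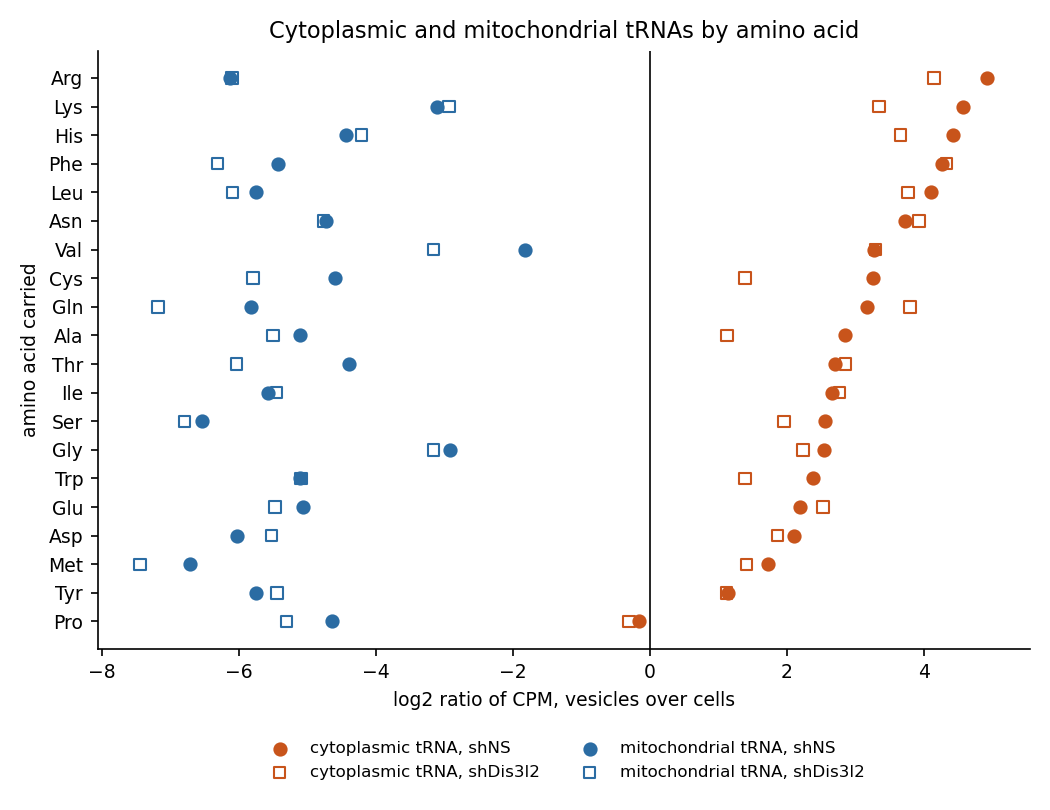
Log2 ratio of vesicles over cells (horizontal axis) for cytoplasmic (orange) and mitochondrial (blue) tRNAs summed by amino acid, with the shNS pair as filled circles and the shDis3l2 pair as open squares. In the shNS pair cytoplasmic tRNAs run from -0.15 to 4.93 and mitochondrial tRNAs from -6.71 to -1.82, without overlap.

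The sequences of the 2 mitochondrial tRNAs with most counts in cells are given with their anticodons in capitals, since these and their cytoplasmic counterparts moved in opposite directions (GENCODE M21, GRCm38, 5′ to 3′, plus strand; mt-Tm at chrM:3845-3913 and mt-Ts2 at chrM:11613-11671).
mt-Tm: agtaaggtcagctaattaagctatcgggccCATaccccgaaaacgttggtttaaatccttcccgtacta
mt-Ts2: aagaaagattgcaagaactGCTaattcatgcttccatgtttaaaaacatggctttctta
mt-Tm carries methionine and mt-Ts2 serine. mt-Tm, with the counts given above for methionine, was 105-fold lower in vesicles. mt-Ts2 had 94646 and 894 counts, 97.5-fold lower (91.3 to 104). In the shDis3l2 pair they had 177199 and 978, and 108452 and 945 counts. mt-Rnr2, the large mitochondrial rRNA, had most counts of the organelle, 171375 and 1794 (88.0-fold lower), and mt-Rnr1, the small one, 21784 and 970 (20.7-fold lower). The smallest difference was that of mt-Tv, the valine tRNA, with 2434 and 635 counts (3.53-fold lower).

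Mitochondrial mRNAs were lower too. mt-Co1, which encodes subunit 1 of cytochrome c oxidase, had 6038 counts in cells and 216 in vesicles (25.7-fold lower, 22.5 to 29.6), and mt-Co3, which encodes another subunit, 1894 and 84 (20.7-fold). The ratios ran from mt-Nd4l (1516 and 14 counts, 96.4-fold lower) to mt-Nd4 (966 and 52, 17.0-fold lower), both of complex I. Messages for the same complexes are also made in the nucleus and translated in the cytosol. Of the 23 nuclear-encoded respiratory chain genes listed, 15 were measured and 15 were higher, with a median of 3.19 (2.47 in the shDis3l2 pair), where 81.5% of all protein-coding genes were higher. Only 2 of the 15 had at least 50 counts in cells, so most reached the minimum through the vesicle library. Atp5a1 and Atp5b, the core subunits of ATP synthase, had 59 and 850, and 47 and 515 counts (15.5-fold and 11.8-fold higher). Cox8a, an oxidase subunit, was highest (8 and 151 counts, 19.3-fold). Ndufs1 of complex I was lowest (52 and 116, log2 1.27), and it falls to -0.08 with the total without miRNA hairpins.

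Among nuclear RNAs, small nucleolar RNAs had the lowest class median. Most belong to 1 of 2 kinds: box C/D RNAs guide methylation of rRNA and box H/ACA RNAs guide pseudouridine formation. Sequences of 4 abundant or strongly retained C/D RNAs are shown with TGATG near the 5′ end and CTGA near the 3′ end in capitals, letters of the C and D boxes, beside 1 RNA with the ACA ending that went the other way (GENCODE M21, GRCm38, 5′ to 3′). Gm23212 (chr1:161036682-161036741, plus) and Snord78 (chr1:161036984-161037049, plus) lie within Gas5, Snord37 (chr10:81178950-81179013, plus) in an intron of Eef2 and Snord98 (chr10:62765576-62765640, minus) in an intron of Ccar1. Gm23123 is at chr17:26223502-26223645, plus.
Gm23212: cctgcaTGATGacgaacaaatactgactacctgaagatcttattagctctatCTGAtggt
Snord78: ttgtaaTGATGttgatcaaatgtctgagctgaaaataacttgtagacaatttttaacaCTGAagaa
Snord37: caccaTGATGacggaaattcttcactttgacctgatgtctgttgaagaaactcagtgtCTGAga
Snord98: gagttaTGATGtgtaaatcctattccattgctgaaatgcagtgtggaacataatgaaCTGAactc
Gm23123: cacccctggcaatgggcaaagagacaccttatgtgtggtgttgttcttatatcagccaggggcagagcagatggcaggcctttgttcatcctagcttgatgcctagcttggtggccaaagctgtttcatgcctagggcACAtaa
Both C/D motifs were searched on the RNA strand within 20 nt of the ends and were found in 230 of 1362 snoRNA sequences of up to 300 nt (16.9%). ACA at 3 nt from the 3′ end was found in 269 (19.8%).

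Gm23212 alone had 445268 counts in cells and 5993 in vesicles, 68.5-fold lower (66.7 to 70.2), and 406662 and 5847 in the shDis3l2 pair. Snord78 had 80275 and 761 counts (97.1-fold lower), Snord37 57768 and 675 (78.8-fold) and Snord98 24818 and 167 (137-fold, 118 to 160). The 122 measured snoRNAs with both C/D motifs had a median log2 ratio of -4.57, and 121 of them were lower. The 44 with ACA at the end had a median of -1.96, with 37 lower and 2 higher, and the 29 with neither pattern -3.65. By symbol, 70 Snord genes stood at -4.43 (69 lower) and 23 Snora genes at -2.12 (20 lower, 1 higher). The 2 kinds differ in length, with median lengths of 76.0 and 134 nt by the end motifs. Within the C/D group, ratio and length had a Spearman correlation of 0.480 across 122 genes (the shorter RNAs had the lower ratios), and within the ACA group -0.0349 across 44.

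Gm23123 was the highest snoRNA, with 31 and 557 counts (19.2-fold higher, 13.6 to 29.0), followed by Snora17 with 188 and 791 (4.56-fold). In the shDis3l2 pair Gm23123 had 207 and 204 counts, a log2 ratio of 0.04. Snora28 was counted in the shNS cells alone (445 counts and 0 in the other 3 libraries), and it was at least 137-fold lower in the vesicles of this pair. It lies in an exon of Eif5, which had 196 and 408 counts in the shNS pair and 1560 and 382 in the shDis3l2 pair. Reads can be divided between these genes, so the values of Snora28 are uncertain. Scarna6, a guide RNA of Cajal bodies, had 1083 and 94 counts (10.6-fold lower). The class median was -5.38 in the shDis3l2 pair, and 69 of 70 Snord and 19 of 23 Snora genes had a lower ratio there than in the shNS pair. The share of all genes with a lower ratio there was not counted, so these counts give no result particular to snoRNAs. Medians in the shNS and shDis3l2 pairs were -2.00 and -3.74 for scaRNAs, and 1.30 and -0.05 for snRNAs. Beside this, the protein-coding median was 2.27 in the shNS pair and 2.48 in the shDis3l2 pair, and the tRNA median 3.01 and 2.65.

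Ribosomal RNA divided by molecule. The 5.8S rRNA gene n-R5-8s1 had 215825 counts in cells and 72355 in vesicles, 2.75-fold lower, while CT010467.1, an rRNA annotation of 1849 nt on chromosome 17, had 90302 and 196341 (2.36-fold higher, and at -0.11 with the total without miRNA hairpins). 5S rRNA, which RNA polymerase III makes from a gene cluster on chromosome 8, was higher: n-R5s102 went from 1268 to 17238 counts (14.7-fold). Its near-identical copies n-R5s112, from 55 to 11719, and n-R5s106, from 167 to 2383, divide reads with it.

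Protein-coding genes were the largest group by number. Since 81.5% of them were higher and 6.78% lower, a list with shares near these is described here by its members and gives no result about the list. Members scarce in cells could pass the count minimum only through the vesicle library, so the number with at least 50 counts in cells is given for each list. The first lists cover the translation machinery. Of 46 listed large-subunit ribosomal protein genes 45 were measured, 36 higher and 2 lower, with a median of 3.70, and of 33 small-subunit genes 32 were measured, 27 higher and 0 lower, with a median of 4.02. The shares higher were 80.0% and 84.4%, near that of all protein-coding genes, and 26 and 17 members had at least 50 counts in cells. Rpl15 was highest among the large-subunit genes (67 and 7654 counts, 123-fold) and Rps21 among the small-subunit genes (12 and 796, 69.2-fold). Rps27a, whose product is a ribosomal protein fused to ubiquitin, had 104 and 2551 counts, and Rps6, a target of growth signalling, 119 and 2128. Gene structure differed within the list. The 54 ribosomal protein genes without a small RNA gene in an exon were higher in 54 of 54 cases, with ratios from 1.37 to 6.94, the lowest of which falls below 0 under the last 2 scales, and a median of 4.20. The 23 with a small RNA gene in an exon had a median of 0.88, with 9 higher and 2 lower.

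**Figure D4:**
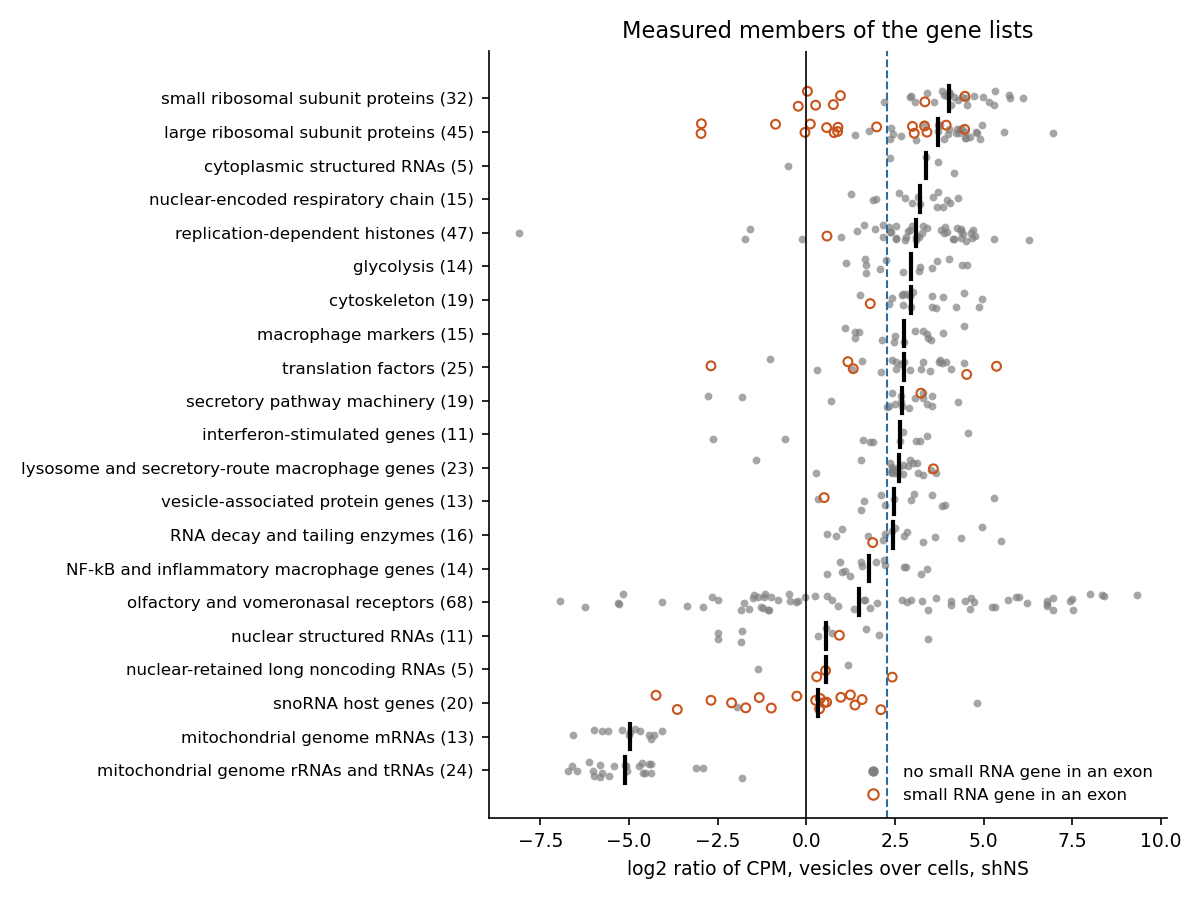
Log2 ratio of vesicles over cells (shNS libraries, horizontal axis) for the measured members of each gene list, with the list median as a black bar, the protein-coding median of 2.27 as a blue dashed line, and genes holding a small RNA gene in an exon as open orange circles. Among ribosomal protein genes the open circles have a median of 0.88 and the grey points a median of 4.20.

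Translation factors gave 22 higher (88.0%) and 2 lower of 25, with a median of 2.75, and 14 had at least 50 counts in cells. Eef1a1, the elongation factor that delivers tRNAs to the ribosome, had 396 and 8406 counts (23.0-fold), and Eef1b2, its exchange factor, was highest (17 and 663, 41.1-fold). Both hold a small RNA gene in an exon, Gm26377 in Eef1a1 and Gm27390 in Eef1b2. The main transcript of Eef1a1 shares 108 bases in a row with Gm26377. Eif4a2, an initiation helicase, was lowest with 7421 and 1060 counts (6.45-fold lower), and its main transcript shares 69 bases in a row with Snord2. Replication-dependent histone genes, whose messages lack a poly(A) tail, were measured for 47 of 70: 41 higher (87.2%), 3 lower, median 3.10, with 19 at 50 counts or more in cells. Hist2h2aa1 was highest (25 and 1807 counts, 76.9-fold), Hist1h2br had 96 and 1809 counts, and Hist1h2bq was lowest (147 and 0, at least 45.2-fold lower). Histone genes of 1 kind are near-identical, so counts of single members are uncertain.

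Glycolysis and cytoskeleton genes stand for housekeeping messages of the cytosol. All 14 glycolysis genes were measured and 14 were higher (median 2.96), beside 81.5% of protein-coding genes, and 12 had at least 50 counts in cells. They ran from Eno1, the enolase gene, with 91 and 184 counts, to Pgk1, phosphoglycerate kinase, with 70 and 1487 (22.9-fold). Pkm, pyruvate kinase, had 136 and 2614 counts (20.8-fold). Of 21 cytoskeleton genes 19 were measured and 19 were higher (median 2.95), 10 of them with at least 50 counts in cells, among them Actb, cytoplasmic actin (129 and 1386, 11.6-fold), and Tuba1b, a tubulin (54 and 1567, 31.2-fold). Arpc1b, of the actin-branching Arp2/3 complex, was lowest (187 and 487, 2.82-fold). Eno1 lies at -0.22 with the total without miRNA hairpins, and Arpc1b at -0.43 with the last of the 6 scales.

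Of 20 genes that mark the macrophage 15 were measured and 15 were higher (median 2.75), beside 81.5% of protein-coding genes, and 10 of the 15 had at least 50 counts in cells. Lyz2, lysozyme, had 223 and 2161 counts (10.5-fold, 9.16 to 12.1), Cd14, the co-receptor for endotoxin, 120 and 1075 (9.69-fold), and Itgb2, the common chain of leukocyte integrins, 21 and 426 (21.5-fold). Lysosome and secretory-route genes gave 21 higher (91.3%) and 1 lower of 23 measured of 25 (median 2.61), with 15 at 50 counts or more in cells. Ctsz, a cathepsin, was highest (28 and 332, 12.7-fold), Fth1, ferritin heavy chain, had 163 and 1470 counts, and Gpnmb, a lysosomal glycoprotein, 239 and 1126. Mmp12, macrophage elastase, was lowest (367 and 126, 2.68-fold lower).

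NF-kB target and other inflammatory genes were measured for 14 of 28, with 12 higher (85.7%, near the 81.5% of protein-coding genes), 0 lower and a median of 1.76, or -0.17 under the last of the 6 scales. Of these, 9 had at least 50 counts in cells. Tnf, the cytokine, had 325 and 604 counts, 2.02-fold higher, or -0.34 with the total without miRNA hairpins. Junb, an immediate-early transcription factor, had 237 and 1009, and Nlrp3, the inflammasome sensor, was highest (37 and 368, 10.7-fold). Zfp36, which encodes an RNA-binding protein that destabilises Tnf mRNA, was lowest (79 and 109, log2 0.58). Interferon-stimulated genes were measured for 11 of 28, with 9 higher (81.8%), 1 lower and a median of 2.64. That share is close to the 81.5% of protein-coding genes, and 3 of the 11 had at least 50 counts in cells. Eif2ak2, the kinase PKR, had 25 and 554 counts (23.6-fold higher), Trim25 652 and 3996 (6.65-fold), and Ifit1 123 and 18 (6.15-fold lower). Ifit1 binds foreign RNA, and in the shDis3l2 pair it had 244 and 20 counts.

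Genes whose proteins are found in vesicles were measured for 13 of 25, with 11 higher (84.6%, near the 81.5% of protein-coding genes) and 0 lower (median 2.48). Of these 13, 4 had at least 50 counts in cells. Cd9, a tetraspanin, was highest (47 and 1703 counts, 38.9-fold, 29.4 to 53.7), on a transcript that shares 36 bases with the misc_RNA gene Gm22514. Cd82, another tetraspanin, was lowest (59 and 69, within 2-fold). Hspa8, the constitutive Hsc70 chaperone, had 2009 and 2622 counts on a gene that also holds copies of Snord14. Secretory pathway genes gave 16 higher (84.2%) and 2 lower (10.5%) of 19 measured of 28 (median 2.70), shares near those of all protein-coding genes, and 10 had at least 50 counts in cells. Srp54a, a protein of the signal recognition particle, was highest (11 and 205, 19.4-fold), Ssr1, of the translocon-associated complex, had 214 and 999, Sec61a1, the channel of the translocon, 1306 and 342, and Srp72 was lowest (918 and 123, 6.85-fold lower). RNA decay and tailing enzymes are in the table for 22 of 27 listed, and 16 were measured, with 14 higher (87.5%, beside 81.5% of protein-coding genes) and 0 lower (median 2.45, and 1.89 in the shDis3l2 pair). Of the 16, 4 had at least 50 counts in cells. Dcp2, the decapping enzyme, had 171 and 4871 counts (30.8-fold), Tut7, a uridylyltransferase, 71 and 98 (within 2-fold), and Dis3l2 was highest, 44.8-fold higher (33.3 to 63.4).

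The last scale lowers every log2 ratio by 1.92 and so amounts to a higher threshold. Under it, 1635 of 5548 protein-coding genes were at least 2-fold higher. Among the translation machinery these were 29 of 45 large-subunit genes, 25 of 32 small-subunit genes, 11 of 25 translation factors and 27 of 47 histone genes. Among cytosolic and respiratory messages they were 7 of 14 glycolysis, 10 of 19 cytoskeleton and 10 of 15 nuclear-encoded respiratory chain genes. Among macrophage messages they were 7 of 15 markers, 7 of 23 lysosome genes, 2 of 14 inflammatory genes and 4 of 11 interferon-stimulated genes. The remaining lists gave 6 of 13 vesicle-associated, 8 of 19 secretory and 5 of 16 RNA decay genes.

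Some genes hold a small RNA gene within an exon on the same strand, and reads of the small RNA can then be counted on the host. The 226 nuclear protein-coding genes that do, measured or not, took 2.20% of the cell library and 1.48% of the vesicle library, and the 153 measured had a median log2 ratio of 1.30. The 21566 others took 4.72% and 18.3%, with a median of 2.28 over the 5382 measured. Several of the genes with most counts in cells were of the first kind. Mcm7, a helicase subunit that holds Mir25 and Mir93, had 192347 and 61553 counts (2.88-fold lower), 2010111I01Rik, with Mir24-1 and Mir27b, 158782 and 22373 (6.54-fold lower). Wwp2, a ubiquitin ligase with Mir140, had 13116 and 4404 (2.74-fold lower). Among long noncoding genes, 40 with a small RNA gene in an exon had a median of -0.88 (8 higher, 19 lower) and 444 others 2.07 (257 higher, 138 lower). Mir17hg (435924 and 152465 counts), A330023F24Rik, with Mir29b-2 and Mir29c (245223 and 25636), and E130102H24Rik, with Mir101a (156051 and 35625), were among the former.

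Host genes of snoRNAs, a list of 26 of which 23 are in the table and 20 were measured, had 5 higher and 7 lower members. Their median was 0.31, or -0.67 with TMM factors. Gas5, which carries Gm23212 and Snord78 and spans chr1:161034422-161038539, had 19081 and 931 counts (18.9-fold lower), and Snhg1, host of several C/D RNAs, 12375 and 914 (12.5-fold lower). Snhg18, with 5 and 143 counts, was highest. The transcripts of a gene could go separate ways. In Srp72, the transcript with most counts, a retained-intron form of 417 nt, had 888 counts in cells and 4 in vesicles, while the other transcripts had 30 and 119. In Sec61a1 the retained-intron form had 1260 and 99 counts and the others 46 and 243. In Rpl13, the lowest large-subunit gene, a retained-intron form that contains Snord68 had 11072 and 634 counts and the others 22 and 674. In Rps12, the lowest small-subunit gene, the form that contains the snoRNA gene Gm23130 had 528 and 9 counts and the others 242 and 596.

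Across the 363 nuclear protein-coding genes that were lower, 56 had at least 100 counts on transcripts other than the most abundant one. On those other transcripts, 32 of the 56 were higher, 7 lower and 17 within 2-fold, with a median log2 ratio of 1.25. Among the 4522 higher genes, 938 had as many counts on other transcripts, and 734 of these were higher on them, with a median of 1.97. The counting program's division of short reads among overlapping transcripts is an estimate, and the most abundant transcript was chosen from these same counts, so these values are descriptions.

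**Figure D5:**
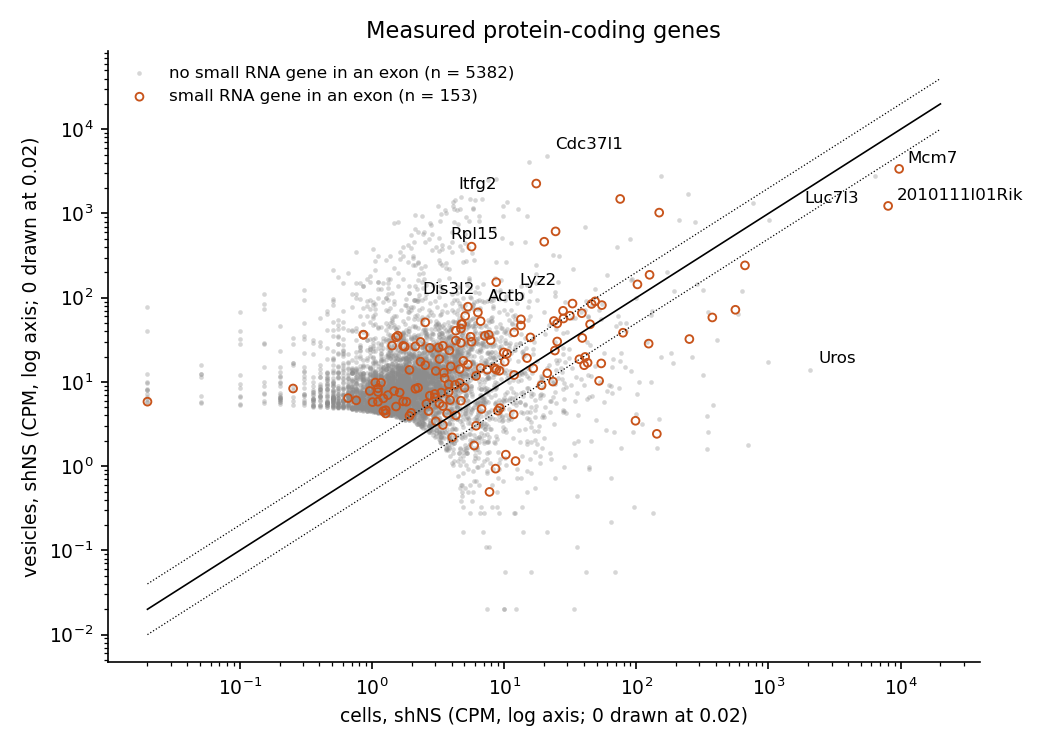
CPM in shNS cells (horizontal axis) and in shNS vesicles (vertical axis) of the measured protein-coding genes, both on log scales, with genes that hold a small RNA gene in an exon as open orange circles, a solid line of equal values and dotted lines at 2-fold. Mcm7 and 2010111I01Rik lie below the line at the right, and Lyz2, Actb, Rpl15 and Dis3l2 above it.

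The extremes of the protein-coding genes were single transcripts. Gm3591 had 0 counts in cells and 1406 in vesicles (at least 509-fold higher) and Fam205a2 0 and 742 (at least 268-fold). Olfr384, an odorant receptor gene, had 3 and 2046 (ratio 635, 253 to 3592). Hgfac, a serine protease that activates hepatocyte growth factor, had 2 and 1238, Cyp2e1, a liver cytochrome P450, 29 and 14099, Gpr82, an orphan receptor, 31 and 14381, and Fscn1, which bundles actin, 3 and 1512. Dennd1c (15 and 6362), Arhgap33 (42 and 17383) and Caskin1 (3 and 1324) completed the 10 highest. Several of these genes are known for tissues other than macrophages. Of the 278 nuclear protein-coding genes at least 32-fold higher with at least 20 CPM in vesicles, 252 (90.6%) had at least 90% of their counts on a single transcript. Over all 5535 measured it was 2054 (37.1%). That share had no CPM minimum and, as far as its counts show, was taken in the cell library. The 2 shares are therefore not a like comparison. Those 278 held 1641525 counts, 9.02% of the vesicle library, and 276 had the same call in the shDis3l2 pair. Of all higher protein-coding genes 96.1% did, and genes picked at 32-fold lie further from the 2-fold limit.

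Among them were the genes with most counts in vesicles: Cdc37l1, a relative of an Hsp90 co-chaperone (414 and 88220 counts, 231-fold), Itfg2 (304 and 75074, 268-fold), 6430571L13Rik (171 and 46490), Atp8a1, a lipid flippase (150 and 45868), Cnot3, of the deadenylase complex (346 and 41230), and Olfr441 (93 and 28780). The main transcript of Itfg2 shares 68 bases in a row with Gm25574, a misc_RNA, and that of Cnot3 38 with Gm25250, so their reads may belong to either gene. Outside those 278, Ncbp3, a cap-binding protein that shares 63 bases with another misc_RNA, had 3055 and 50765 counts. Fstl1, a secreted glycoprotein, had 4839 and 30981. Of 123 main transcripts searched, 43 shared 20 or more bases in a row with an annotated short RNA gene, cytoplasmic tRNAs not searched. Of these, 30 shared 30 or more, among them those of Trim25, Dcp2, Ssr1, Srp54a, Foxn1, Kcnq1ot1, Gm40761 and Olfr384.

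At the other end, Zfp36l3 had 668 counts in cells and 0 in vesicles (at least 205-fold lower). Foxn1, a transcription factor of the thymus epithelium, had 1353 and 1 (ratio 831 lower, 223 to 49278) and Ibsp, a bone sialoprotein, 828 and 1. Ttll3, a tubulin glycylase, had 2643 and 5, Dmrt1, a testis transcription factor, 6768 and 29, and Adam29 1273 and 4, with Fgd5 (1888 and 6), Sfta2 (699 and 2) and Ankrd29 (13899 and 32) also among the lowest. Uros, a haem synthesis enzyme, had 41005 and 255 counts (148-fold lower, 131 to 168), of which 40980 and 207 lay on a processed transcript of 598 nt. Of the 26 genes at least 32-fold lower with at least 20 CPM in cells, 25 had at least 90% of their counts on 1 transcript. All 26 had the same call in the shDis3l2 pair, beside 78.7% of all lower protein-coding genes. The 26 also included Mei1, a meiosis gene (19463 and 311). Macf1, a cytoskeletal linker (12353 and 2186), and Luc7l3, a splicing factor (126342 and 50660), were lower by less, and Atxn2l and Lars2 were within 2-fold (19943 and 15371, and 14987 and 24018 counts).

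Odorant and vomeronasal receptor genes, taken as a list after such genes were seen among the extremes, numbered 1411 in the table and 68 with at least 100 counts. Of those, 35 were higher (51.5%) and 23 lower (33.8%), beside 81.5% and 6.78% of protein-coding genes. The median of the 68 was 1.47, or -0.02 with the protein-coding total. All 1411 together had 17715 counts in cells and 93682 in vesicles. Vmn1r43, with 195 and 22048 counts, and Olfr441 had most counts, and Olfr101, with 201 and 1, was lowest. These receptors are normally made in sensory neurons of the nose. The main transcript of Vmn1r43, of 10147 nt, shares 85 bases in a row with Gm25534, which the annotation types as miRNA, and that of Olfr441 shares 46 with Gm24683.

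Long noncoding RNAs had the widest range. Gm42427, a provisional annotation (type TEC) of 5292 nt on chromosome 5, had 4841 counts in cells and 1020447 in vesicles, 229-fold higher (222 to 235), and took 5.61% of the vesicle library. Gm43305 on chromosome 14 had 1404 and 276808 (214-fold). Their ratios in the shDis3l2 pair were 245 and 293. Neither shares 20 bases in a row with a short RNA gene of GENCODE M21. Cytoplasmic tRNAs were not among the sequences searched, so a stretch shared with a tRNA would have been missed. In shNS vesicles 100% of the Gm42427 counts and 99.6% of the Gm43305 counts lay on 1 transcript. Whether these short reads came from long RNAs was not tested. Gm44000 went from 0 to 2780 counts (at least 1006-fold), Gm40761 from 0 to 381 (at least 138-fold), Gm15202 from 6 to 8919, AC116489.2 from 25 to 15143, and Nron, a noncoding repressor of the factor NFAT, from 8 to 3382. Nron holds a misc_RNA gene of the same name in an exon and shares 370 bases in a row with it, so its reads may belong to either. The lowest were 1700021G15Rik (5486 and 0, at least 1685-fold lower), Gm43797 (1083 and 0, at least 333-fold lower), Gm47374 (3163 and 1), Gm43778 (747 and 1) and Gm27177 (5925 and 16).

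Long noncoding RNAs known to stay in the nucleus did not share 1 direction. Of 10 listed, 9 are in the table and 5 were measured, with 2 higher, 1 lower and a median of 0.54, which is -0.44 with TMM factors. The shares higher and lower were 40.0% and 20.0%, beside 48.2% and 41.9% of noncoding genes. Malat1, of nuclear speckles, had 724 and 3572 counts (5.35-fold higher, 4.94 to 5.81), and Kcnq1ot1, which silences an imprinted cluster, 718 and 258 (2.56-fold lower). Malat1 holds the misc_RNA gene Gm27694 in an exon, with which it shares 86 bases, and 99.2% of its vesicle counts lay on its main transcript.

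Among pseudogenes, Gm38019 had 29969 counts in cells and 6 in vesicles (4248-fold lower, 2114 to 12542), and Gm48272 482 and 0 (at least 148-fold lower). Gm6475 (1160 and 9), Gm8826 (483 and 2) and Gm48841 (579 and 3) followed. Gm7336 went from 0 to 827 (at least 299-fold higher), Gm15500 from 0 to 594, Gm15459 from 0 to 435, 1 of the 2 genes named Gm9025 from 0 to 386 and AC159289.1 from 24 to 10517. Gm16123 (126 and 34970) and Gm46223 (269 and 25568) had most counts in vesicles, and Gm14451 (18577 and 15364) was within 2-fold. Processed pseudogenes copy the sequence of an mRNA, so their reads can be divided with the parent gene. Among the 4 repeat sequences measured, 4.5S, an abundant rodent RNA, had 3455 and 6831 counts (2.15-fold higher, and -0.25 with the total without miRNA hairpins), SINE_ID 76 and 134 and SINE_B2 201 and 161, the last 2 within 2-fold.

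The count minimum itself bore on the ratios, because a gene scarce in cells could reach 100 counts through the vesicle library alone. Among nuclear protein-coding genes with 0 to 10 counts in cells the median was 4.59 (246 genes), with 31 to 100 counts 2.02 (2670), with 101 to 300 counts 0.70 (662) and with more than 1000 counts -2.38 (91 genes, 17 of them with a small RNA gene in an exon). A median over measured genes is therefore not one over all genes of a list.

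The shDis3l2 libraries are the other pair of cells and vesicles in the series. They share no library with the shNS pair, but they differ in the hairpin and are not a replicate. Of the 5001 genes higher in shNS vesicles, 4955 (99.1%) had the same sign and 4794 (95.9%) the same call there. Of the 792 lower genes, 765 (96.6%) had the same sign and 685 (86.5%) the same call. Ratios of the 2 pairs had a Spearman correlation of 0.858 across 6542 genes, 0.817 across protein-coding and 0.937 across noncoding genes, which are not independent replicates. The background in that pair was 77.2% higher and 12.0% lower. Opposite calls were few: 21 genes were higher in shNS vesicles and lower in shDis3l2 vesicles, and 4 the other way. Named after their values were seen, R3hdm1 (109 and 1872 counts with shNS, 17001 and 2715 with shDis3l2) and Snapc3 (43 and 1655, 15804 and 2231) had, like Dis3l2, their high count in the cell library labelled shDis3l2, as did the minor spliceosome RNA Rnu11 (253 and 744, 1208 and 571).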

How the data were processed

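The deposited table holds estimated counts per transcript for 141239 features in 4 libraries. Per the submitters' processing notes, cutadapt, Salmon and Novoalign were used with builds GRCm38 and mm10; versions, and whether reads were collapsed by molecular tags, are not given in the sources used here. Of the deposited estimated counts above 0, 6.56% were whole within 0.001. GENCODE M21 named 139791 features; 239 are tRNA sequences (15 with an intron removed; summed in 51 anticodon families), 8 repeats and 1201 unnamed transcripts, in totals only. Values were summed per gene and rounded.

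CPM used the total of all features. Ratios carry a pseudocount of 0.5 and exact conditional (Clopper-Pearson) 95% intervals; a gene was called at 2-fold or more with an interval excluding 1. For a gene at 0 the bound uses 3 counts in that library; intervals and floors cover counting error only. A small RNA gene in an exon means the same strand. Shared stretches were sought against short RNA genes on the same strand in runs of at least 20 nt. Small or short RNA genes here are those of GENCODE M21, so cytoplasmic tRNAs were in neither search.

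The members and lists were chosen with earlier results of these data known. There were 26 lists, 1 added after values were seen and 5 without a measured member. Named protein-coding genes are the 10 highest and 10 lowest called with at least 20 CPM in 1 library and the 10 with most counts in each; other classes use 5 and 3; for lists the highest, the lowest and the 2 with most counts; and Dis3l2. A gene that this rule names is not reported here. Alternatives were other scales, count minimums of 10, 1000 and 200 over 4 libraries, a pseudocount of 5, 1 transcript per gene, no genes with a small RNA gene in an exon, thinning, and additive fits with edgeR 4.0.16 and DESeq2 1.42.0 over the 4 libraries (1 residual degree of freedom); the scale without such genes was added after seeing the data. Calls and fits were tested on simulated data. Python 3.11.15 and R 4.3.3 were used.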

Additional observations from a re-analysis of the deposited data

Results flagged for a closer look

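Calls in the 2 pairs of libraries were opposite for 21 genes higher and 4 genes lower in shNS vesicles, and the 5 of these that are named are given here. The difference between the pairs was not tested, because each pair has 1 library a side. Dis3l2 had a log2 ratio of vesicles over cells of 5.49 in the shNS pair and -2.74 in the shDis3l2 pair, a difference of 8.23, with 41 counts in the cell library labelled shNS against 13232 in that labelled shDis3l2. tRNA-Pro-AGG, chosen after its values were seen, had 232 counts in shNS cells and 42 in their vesicles, but 148 and 309 in the shDis3l2 pair. Its log2 ratios were -2.33 and 1.12, a difference of -3.46. R3hdm1, with log2 ratios of 4.21 and -2.58, differed by 6.80, Snapc3 (5.37 and -2.76) by 8.13 and Rnu11 (1.67 and -1.02) by 2.69.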

How the results depend on the processing

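No replicate could be left out, because each group has 1 library. All log2 ratios shift together with the scale. The protein-coding median of 2.27 became 1.29 with TMM factors, 1.42 with DESeq2 size factors, 0.92 with the total without miRNA hairpins, 0.78 with the protein-coding total and 0.35 with that total without genes holding a small RNA gene in an exon, a scale chosen after seeing the data. Protein-coding genes were, in that order, higher and lower in 3307 and 610, 3534 and 566, 2631 and 707, 2324 and 759, and 1635 and 977 cases. For all genes the last 3 scales gave 3016, 2701 and 1980 higher and 1185, 1244 and 1484 lower.

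With a minimum of 10 counts there were 10209 higher and 2625 lower of 20085 genes (protein-coding 8794 and 1193, noncoding 1415 and 1432), and with 1000 counts 552 and 260 of 883 (381 and 80, and 171 and 180). The protein-coding median was 1.51 and 4.35 at these minimums. Thinning the vesicle library left 2907 of 4162 genes higher (2569 of 3346 protein-coding). The number of genes tested changed with these settings, and so did the share of them that was higher. The additive fits over the 4 libraries pair cells and vesicles by hairpin, with 1 residual degree of freedom. With adjusted p under 0.05 and at least 2-fold they gave 5043 higher and 749 lower with edgeR and 5048 and 756 with DESeq2. The residual of these fits is the difference between the shNS and shDis3l2 pairs, which are not replicates. Their p-values therefore do not measure variation among preparations of shNS cells or vesicles and are no test of the shNS calls.

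Relative to protein-coding genes, the class medians at 10 and 1000 counts were -1.63 and 0.96 for long noncoding RNAs, -6.49 and -9.16 for mitochondrial mRNAs, -6.61 and -9.85 for mitochondrial rRNAs and tRNAs, -4.66 and -8.98 for snoRNAs, and 1.52 and -1.34 for tRNAs. Without miRNA hairpins in the total, the log2 ratio of class shares was -0.27 for long noncoding RNAs, -6.20 for mitochondrial mRNAs, -7.32 for mitochondrial rRNAs and tRNAs, 0.16 for protein-coding genes, -1.26 for rRNA, -0.27 for repeats, -0.84 for snRNAs, -5.69 for snoRNAs and 1.90 for tRNAs. Without the 10 genes with most counts it was 0.38 for long noncoding RNAs, 1.55 for protein-coding genes, -4.31 for snoRNAs and 2.86 for tRNAs.

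Several medians changed sign. With TMM and DESeq2 factors, the total without hairpins, the protein-coding total and that total without such genes, in this order, nuclear-retained long noncoding RNAs stood at -0.44, -0.31, -0.81, -0.95 and -1.38, nuclear structured RNAs at -0.44, -0.31, -0.80, -0.95 and -1.38, and snoRNA host genes at -0.67, -0.54, -1.04, -1.18 and -1.61. With the last 3, repeats stood at -0.33, -0.48 and -0.91 and snRNAs at -0.05, -0.19 and -0.62. With the last, long noncoding RNAs stood at -0.38 and NF-kB genes at -0.17, and receptors at -0.02 and -0.45 with the last 2. At 10 counts, long noncoding RNAs stood at -0.12, nuclear-retained ones at -0.30 and receptors at -0.44, and at 1000 counts snoRNA hosts at -0.27.

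With the same last 3 scales, 4.5S was at -0.25, -0.39 and -0.82, CT010467.1 at -0.11, -0.26 and -0.69, Eno1 at -0.22, -0.36 and -0.79, Ndufs1 at -0.08, -0.23 and -0.66, Tnf at -0.34, -0.48 and -0.91, and with the last Arpc1b was at -0.43 and Rnu11 at -0.25. Of 168 named genes, 156 kept their call or value with TMM factors and 156 with DESeq2 factors. Under the last 3 scales 150, 146 and 139 kept it and 5, 5 and 7 changed sign, while 168 kept it with a pseudocount of 5.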
